A study of Arabidopsis thaliana with 12 samples.

Results

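Among the features annotated to 1 gene, branched-chain amino acid synthesis was represented on these arrays by 2. These features stand for AT3G58610, the ketol-acid reductoisomerase, and AT3G23940, the dihydroxyacid dehydratase. They were taken because each is annotated to exactly 1 gene and because earlier results of the same ppi1 against WT contrast were known, so the members were selected on differences measured in these arrays. They are 2 of the 3439 features in the table and 2 of the 692 annotated to 1 gene. A further 1877 features had no gene annotated, so their pathway is not known. The 12 arrays were hybridised with total RNA of Arabidopsis thaliana, 6 from the ppi1 mutant and 6 from the wild type (WT), both of ecotype Columbia 0. ppi1 is defective in the import of precursor proteins into the chloroplast, and is known as a mutant of the import receptor TOC33. The sources used here name neither the age nor the tissue or growth conditions of either group. Nothing says that the 6 replicates were separate plants, so the spread given below may be technical.

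Valine, leucine and isoleucine are made in the plastid. Acetohydroxyacid synthase first joins pyruvate to a second pyruvate or to 2-ketobutyrate. Ketol-acid reductoisomerase then rearranges the product and reduces it with NADPH to a dihydroxy acid, and dihydroxyacid dehydratase, an iron-sulphur enzyme, removes water from it to give a keto acid. Branched-chain aminotransferases turn the keto acids into valine and isoleucine, while the leucine line leaves from the valine keto acid. The same reductoisomerase and dehydratase serve both lines, and both enzymes are encoded in the nucleus and imported into the plastid as precursors. The comparison of ppi1 with WT addresses which nuclear transcripts differ in level when that import is impaired.

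After quantile normalisation, which gives every array the same distribution of values, the signals of these consecutive enzymes lay on opposite sides of WT. From the log2 differences, the reductoisomerase signal differed by -20.2% and the dehydratase signal by 24.7% in ppi1 relative to WT. On the deposited scale AT3G58610 was near WT, with a log2 difference of -0.056 (SE 0.0896), and with arrays scaled to a common median AT3G23940 was at 0.11 (SE 0.0413), and neither of these was called. The reductoisomerase signal divided by the dehydratase signal was lower on each ppi1 array than on any WT array. These are the values the members were chosen by, and they are given as a description.

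AT3G58610, which carries out the reduction, had a quantile-normalised intensity of 0.333 on the lowest, 0.381 at the median and 0.411 on the highest of the 6 ppi1 arrays, against 0.423, 0.465 and 0.515 on the 6 WT arrays. The groups did not overlap. The ppi1 arrays with the lowest signal were replicates 3 and 2, and the WT arrays with the highest were replicates 2 and 1. The means were 0.375 ± 0.0354 in ppi1 and 0.470 ± 0.0368 in WT (SD, n = 6 each), a log2 difference of -0.33 (SE 0.0715), with ppi1 lower at 6 of 6 replicate numbers. Since the groups did not overlap, as for 3.95% of all features in this direction, that count was fixed. By number, the difference ran from -0.60 in replicate 2 to -0.10 in replicate 4. No array of AT3G58610 was at the floor of 0.118 below which values were not distinguished.

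AT3G23940, which carries out the dehydration, had an intensity of 1.57 on the lowest, 1.68 at the median and 1.995 on the highest ppi1 array, against 1.36, 1.39 and 1.43 on the WT arrays. Here too the groups did not overlap, and ppi1 was the higher one. Replicates 3 and 4 were the highest of the ppi1 arrays, at 1.93 and 1.995, and the other ppi1 arrays reached at most 1.72. The means were 1.75 ± 0.175 in ppi1 and 1.39 ± 0.0292 in WT (SD, n = 6 each), a log2 difference of 0.32 (SE 0.0590), with ppi1 higher at 6 of 6 replicate numbers. That count again follows from the lack of overlap, which 2.14% of all features showed in this direction. By number, the difference ran from 0.13 in replicate 5 to 0.55 in replicate 4.

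**Figure D1:**
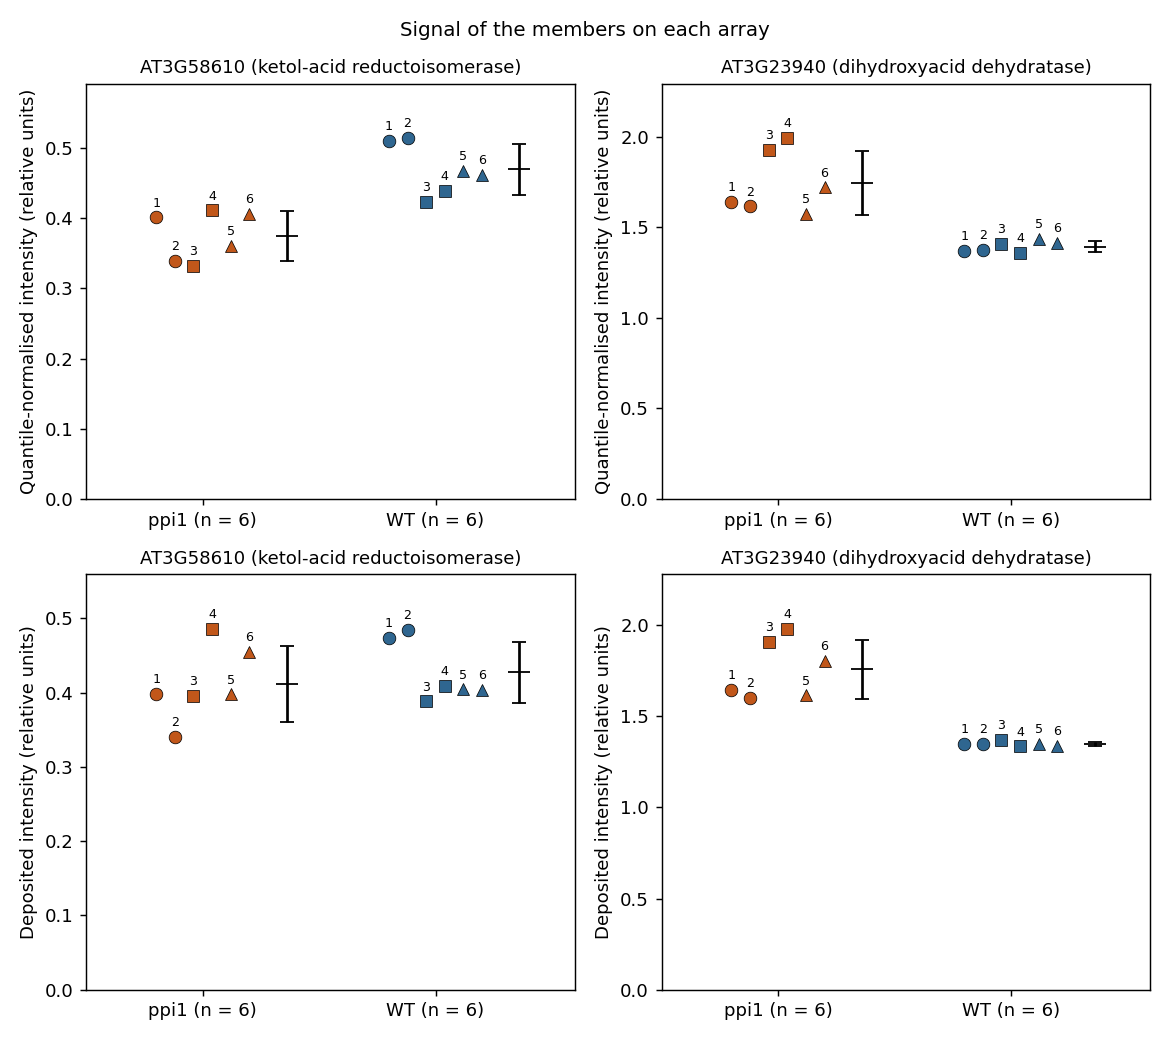
Signal of AT3G58610 (left) and AT3G23940 (right) on each array, as quantile-normalised intensity (top) and as deposited intensity (bottom), both in relative units from 0. Points are arrays numbered by replicate, with a shared symbol for replicates 1 and 2, 3 and 4, and 5 and 6, and bars are the mean ± SD of 6 arrays. After normalisation the groups are apart for both genes, whereas on the deposited scale they overlap for AT3G58610 (0.341 to 0.486 in ppi1 and 0.388 to 0.484 in WT).

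Both members were among the features that limma called at a Benjamini-Hochberg adjusted p under 0.05, AT3G58610 as lower and AT3G23940 as higher in ppi1. Of all 3365 features 284 were called (8.44%), 178 as lower (5.29%) and 106 as higher (3.15%). All ppi1 arrays lay below all WT arrays for 133 features (3.95%) and above them for 72 (2.14%). Since the same contrast chose the members, nothing is read from their calls. In size the 2 differences were alike, and neither was among the extremes: 83.1% of all features had an absolute log2 difference no larger than that of AT3G58610, and 82.4% none larger than that of AT3G23940. The split of the calls moved with the scaling, to 104 lower and 805 higher on the deposited scale and 336 lower and 80 higher when arrays were scaled to a common median. With the replicate number as a block, 267 were called lower and 250 higher, and both members kept their calls. With neighbouring replicates (1 and 2, 3 and 4, 5 and 6) averaged, 4 features were called and neither member was among them. With these neighbours as a random block 99 were called, among them AT3G23940 but not AT3G58610.

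Which of the 2 genes was called depended on the scale. On the deposited scale AT3G58610 averaged 0.412 ± 0.0512 in ppi1 and 0.427 ± 0.0410 in WT (SD, n = 6 each). That is a log2 difference of -0.056 (SE 0.0896), which was not called, and ppi1 was lower at 3 replicate numbers and higher at 3. AT3G23940 averaged 1.76 ± 0.162 in ppi1 and 1.35 ± 0.0115 in WT on that scale, a log2 difference of 0.38 (SE 0.0552), which was called. On that scale 805 of the 3365 features were called higher, and the median log2 difference of all features was 0.21. With median scaling the places were exchanged. AT3G58610 then had a difference of -0.33 (SE 0.0708), which was called, and AT3G23940 one of 0.11 (SE 0.0413), which was not. Divided by the median of its array, AT3G23940 was at 2.56 to 3.01 in ppi1 and at 2.53 to 2.78 in WT. The groups thus overlapped, and ppi1 was higher at 5 replicate numbers and lower at 1.

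The arrays themselves differed in level between the groups. Their medians were 0.620 ± 0.0377 in ppi1 and 0.512 ± 0.0185 in WT, and their summed intensities 3598 to 3689 in ppi1 and 3380 to 3582 in WT. On the deposited scale the median log2 difference of all features was 0.21. With the features sorted by brightness into 4 equal bins, it was 0.29 in bin 2 from the dim end, where AT3G58610 lay, and 0.09 in the brightest bin, where AT3G23940 lay. Set beside those medians, AT3G58610 at -0.056 was below that of its bin and AT3G23940 at 0.38 above that of its own. With cyclic loess between arrays, which like quantile normalisation removes a shift that changes with brightness, the differences were -0.35 (SE 0.0734) for AT3G58610 and 0.33 (SE 0.0469) for AT3G23940, and both were called.

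**Figure D2:**
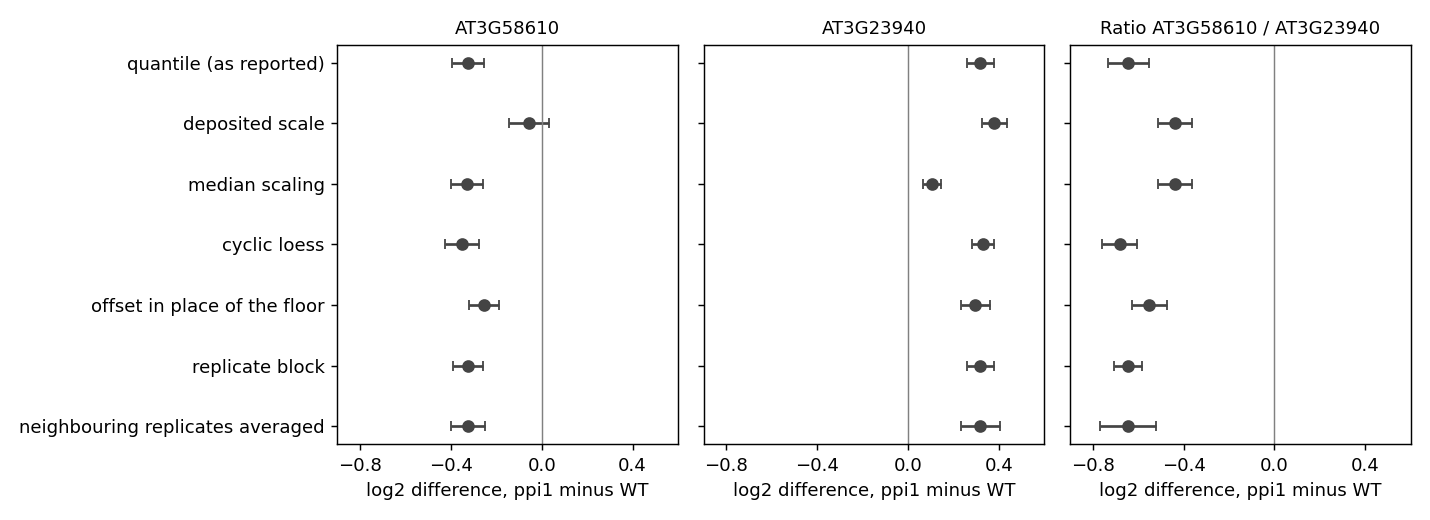
Log2 difference (ppi1 minus WT) of AT3G58610, AT3G23940 and their within-array ratio under 7 treatments of the data, with bars of ± 1 SE and a line at 0. AT3G58610 is near 0 on the deposited scale alone, AT3G23940 is smallest with median scaling, and the ratio lies between -0.68 and -0.44 in all 7.

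The ratio of the 2 signals within an array cancels any factor that is common to that array. It says nothing of the relative amounts of the 2 transcripts, because different features bind with different strength. Here it serves only to compare ppi1 with WT. On the deposited scale the ratio of AT3G58610 to AT3G23940 was 0.207 on the lowest, 0.244 at the median and 0.252 on the highest ppi1 array, against 0.284, 0.304 and 0.360 on the WT arrays. All ppi1 arrays were below all WT arrays. The means were 0.234 ± 0.0192 in ppi1 and 0.317 ± 0.0310 in WT (SD, n = 6 each). The log2 ratio differed by -0.44 (SE 0.0751), and median scaling gave the same value because it changes each array by 1 factor. The ratio does not tell which signal differed. As deposited, AT3G58610 differed by -0.056 and AT3G23940 by 0.38, and with median scaling by -0.33 and 0.11.

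Quantile normalisation, which also removes shifts that change with brightness, widened the gap. The ratio was then 0.216 ± 0.0261 in ppi1 and 0.337 ± 0.0297 in WT, a difference of the log2 ratio of -0.64 (SE 0.0905). The ranges were 0.173 to 0.245 in ppi1 and 0.300 to 0.374 in WT, again without overlap. With both genes apart in opposite directions on this scale, the ratio could not overlap, so this is no further observation. The lowest ratio was that of ppi1 replicate 3 and the highest that of WT replicate 2. By replicate number the log2 ratio was lower in ppi1 by amounts that ran from -0.83 in replicate 2 to -0.47 in replicate 6 after normalisation, and from -0.76 in replicate 2 to -0.26 in replicate 6 as deposited.

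**Figure D3:**
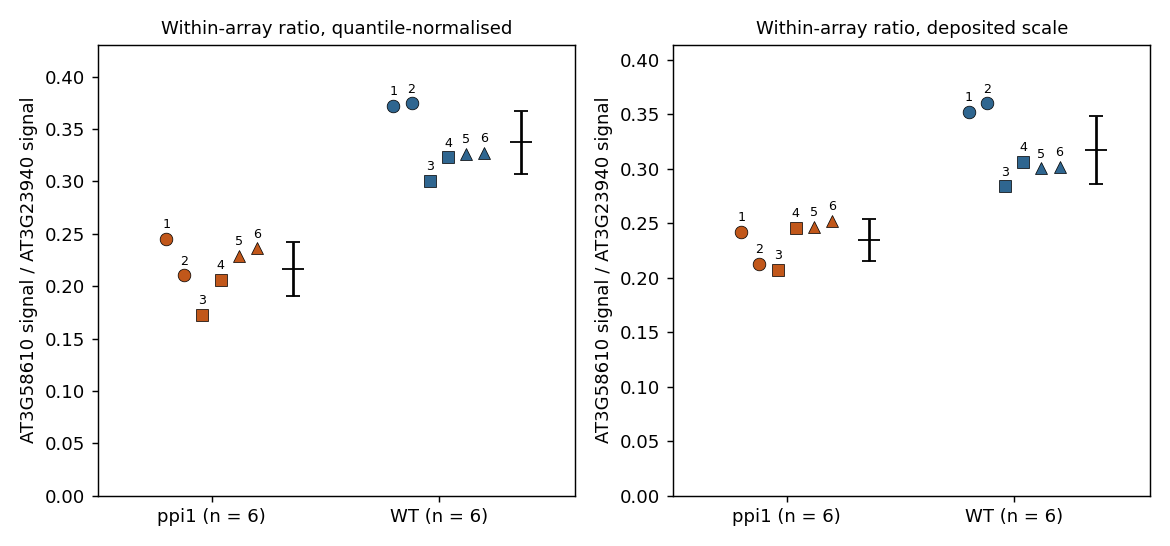
Signal of AT3G58610 divided by that of AT3G23940 within each array, after quantile normalisation (left) and on the deposited scale (right), from 0. Points are arrays numbered by replicate, and bars are the mean ± SD of 6 arrays. On the deposited scale the ppi1 arrays reach at most 0.252 and the WT arrays are at 0.284 or above.

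The rank of each feature within its own array does not change with any scaling that keeps the order of features. AT3G58610 stood at the 26.8 to 35.1 percentile of the ppi1 arrays (mean 31.3 ± 3.75, SD, n = 6) and at the 36.3 to 45.2 percentile of the WT arrays (40.9 ± 3.55, SD, n = 6). AT3G23940 stood at the 89.7 to 92.9 percentile in ppi1 (91.1 ± 1.34) and at the 86.8 to 87.9 percentile in WT (87.3 ± 0.447). In rank the reductoisomerase feature was lower and the dehydratase feature higher on every ppi1 array than on every WT array. Quantile-normalised values follow the rank within the array, so this restates the separation given above and is not a second observation.

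**Figure D4:**
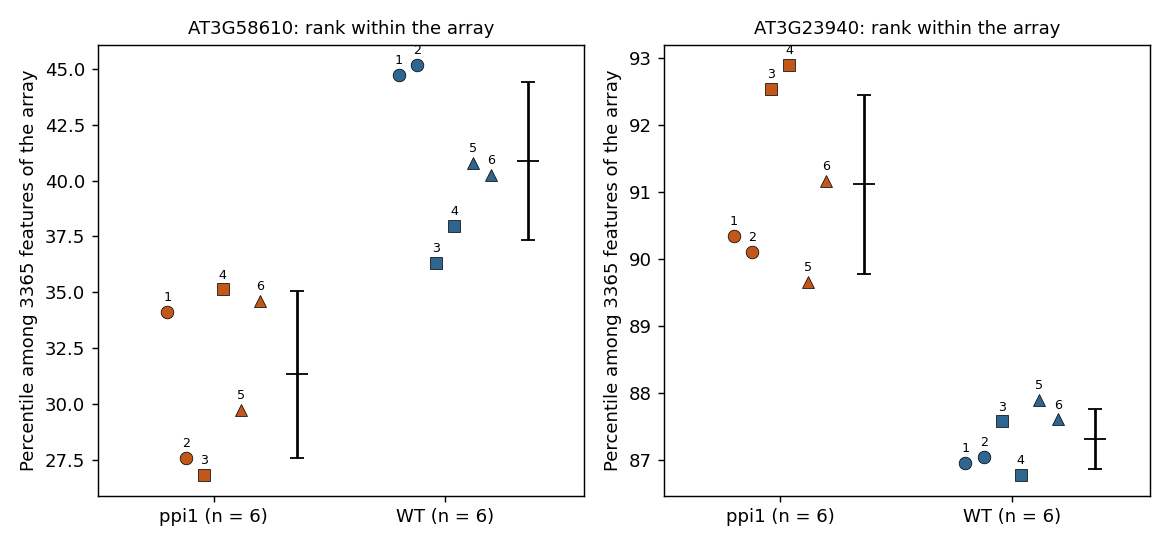
Percentile of AT3G58610 (left) and AT3G23940 (right) among the 3365 features of the same array, on axes that do not start at 0 and differ between the panels. Points are arrays numbered by replicate and bars are the mean ± SD of 6 arrays. The ppi1 arrays end at 35.1 for AT3G58610, below the lowest WT array at 36.3, and begin at 89.7 for AT3G23940, above the highest WT array at 87.9.

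The SD of the log2 signal of AT3G58610 was 0.14 in ppi1 and 0.11 in WT. That of AT3G23940 was 0.14 in ppi1 and 0.030 in WT, against a median over all features of 0.23 in ppi1 and 0.17 in WT. The WT spread of AT3G23940 was at the 5.23 percentile of all features, and its ppi1 spread at the 22.8 percentile. These percentiles count features that stayed at the floor on every array and so had an SD of 0. Neither they nor the medians are matched for brightness. Whether the spreads differ between the groups was not tested.

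Replicates 1 and 2, 3 and 4, and 5 and 6 of a group were close to each other over the whole table, with a median absolute log2 difference of 0.09 to 0.12, against 0.16 to 0.31 for other array pairs of a group. The labels do not tell whether such neighbours are repeats of 1 sample. If they are, each group holds 3 samples, and the SDs, SEs and calls over 6 arrays understate the error. For AT3G58610 alone, neighbours were little closer, with a median absolute log2 difference of 0.11 against 0.14 for other pairs of a group. For AT3G23940 these medians were 0.04 and 0.06. The largest gap of AT3G58610 within a group, 0.31, was between the neighbours ppi1 replicates 3 and 4, at 0.333 and 0.411, which their mean hides. Averaged over these neighbours, AT3G58610 was at 0.371, 0.372 and 0.383 in ppi1 and at 0.512, 0.431 and 0.465 in WT. The sets of AT3G23940 were at 1.63, 1.96 and 1.65 in ppi1 and at 1.37, 1.39 and 1.42 in WT. Their normalised ratios were 0.227, 0.189 and 0.232 in ppi1 and 0.373, 0.311 and 0.327 in WT. The order of the groups was the same in the 3 sets for both genes, and therefore for the ratio.

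The other enzymes of the pathway could not be set beside these. Of 21 loci listed for branched-chain amino acid synthesis, among them threonine deaminase, the subunits of acetohydroxyacid synthase, the aminotransferases and the enzymes of the leucine line, only the 2 members had a feature of their own. None of the 9 loci listed for the breakdown of these amino acids had one, nor did the 21 for aromatic amino acids or the 12 for glutamate, histidine, serine and cysteine. Of the 15 loci of the aspartate family, which supplies the threonine from which isoleucine is made, 2 had a feature of their own, and 0 were called in either direction in limma, against 8.44% of all features, so that 2 features would mostly give no call. The cystathionine beta-lyase CBL (AT3G57050), an enzyme of methionine synthesis, was at 0.659 ± 0.109 in ppi1 and 0.582 ± 0.0605 in WT (SD, n = 6 each). Its log2 difference was 0.17 (SE 0.107, 95% interval -0.07 to 0.40). The gene was not called, although ppi1 was higher at 6 of 6 replicate numbers. On the deposited scale its difference was 0.42 and was called. There 805 of the 3365 features were called higher, and the median log2 difference of all features was 0.21. AT3G53580 was at 0.209 ± 0.0913 in ppi1 and 0.148 ± 0.0363 in WT, with 2 of its 12 arrays at the floor. Its log2 difference was 0.40 (SE 0.250, 95% interval -0.15 to 0.95). The median of these 2 differences was 0.28, against 0.01 over all features tested. A further 3 features were each annotated to 2 genes of the lists, and 1 of the 3 was called, as lower in ppi1 (5.29% of all features were). The called one, at a log2 difference of -0.51 (SE 0.132), was annotated to the diaminopimelate decarboxylase loci AT5G11880 and AT3G14390 of the aspartate family. Another feature of the same pair of loci was at 0.17 (SE 0.129) and was not called. The 3 features are not assigned to a gene.

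The labels give no tissue. Of 4 listed genes of green tissue 2 had a feature of their own, and both were called as lower in ppi1, as were 5.29% of all features. LHB1B2, an antenna protein of photosystem II, was at 7.50 ± 0.385 in ppi1 and 15.5 ± 1.03 in WT, and PSBY, a small photosystem II subunit, was at 1.80 ± 0.271 in ppi1 and 2.52 ± 0.297 in WT (SD, n = 6 each). PSBY was not called with neighbouring replicates averaged or as a random block. None of the 3 listed senescence genes had a feature of its own. The part of a difference in tissue make-up in the values of AT3G58610 and AT3G23940 was not tested, and in such bulk RNA fewer cells of a type and less RNA per cell cannot be told apart.

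Over the 12 arrays the log2 signals of the 2 members had a Pearson correlation of -0.69, which holds the difference between the groups. After each group's mean was subtracted it was 0.07. Among the 642 other single-gene features with a varying signal, the one whose levels were most like those of AT3G58610 over the 12 arrays was AT5G52530 (r = 0.85). It was followed by LHB1B2 (r = 0.84) and by PRK, the phosphoribulokinase of the Calvin cycle (r = 0.82). AT5G52530 was at 0.458 ± 0.0570 in ppi1 and 0.561 ± 0.0610 in WT, and PRK at 0.842 ± 0.254 in ppi1 and 1.48 ± 0.335 in WT. The features most like AT3G23940 were AT1G04420 (r = 0.87), AT2G04790 (r = 0.87) and AT4G20690 (r = 0.86). AT1G04420 was at 0.770 ± 0.0994 in ppi1 and 0.654 ± 0.0270 in WT, AT2G04790 at 1.49 ± 0.308 in ppi1 and 1.04 ± 0.0760 in WT, and AT4G20690 at 0.706 ± 0.0624 in ppi1 and 0.575 ± 0.0350 in WT.

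With the group means subtracted, the likeness rests on the deviations of single arrays alone. The features closest to AT3G58610 were then AT2G44530 (r = 0.77), AT5G02850 (r = 0.75) and AT4G22370 (r = 0.74), none of which was among its closest by level. AT2G44530 was at the floor on 3 of the 12 arrays, with means of 0.134 in ppi1 and 0.150 in WT, so its correlation rests in part on values set to the floor. For AT3G23940 they were AT4G12740 (r = 0.80), AT1G04420 (r = 0.79) and AT4G27700 (r = 0.73), so that AT1G04420 was near it in both ways. AT4G22370 had a log2 difference of 0.52 (SE 0.0782) and AT3G58610 one of -0.33, so features that deviated together between arrays could differ in opposite directions between the groups. All these correlations are descriptions over 12 arrays that share array level and replicate number, taken as the highest of many.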

How the data were processed

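The submitters' series table gives a deposited intensity for every feature and array, linear and never negative. The labels used here name no array type, background correction or scaling. The 74 features at 0 on every array were left out. The other 3365 were quantile-normalised between arrays, raised to a floor of 0.118 (the 5th percentile of positive values) where lower, and log2-transformed. The contrast of ppi1 with WT was fitted with limma 3.58.1 under R 4.3.3 (lmFit and eBayes) over all 12 arrays and all genes, without covariates. The fit was also tested on simulated data, and no result given here rests on that test. Ratios were taken within each array.

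Groups and replicate numbers came from the sample titles. Same-numbered ppi1 and WT arrays deviated together from their group means (r = 0.38 to 0.59), and no array had a higher correlation with another number, so the numbers were taken to pair arrays. The pairing comes from the data, not the labels. The main fit and the SE given with the ratio leave it out, and only the replicate block uses it. With the block the difference of the log2 ratio was -0.64 with an SE of 0.0601. Features were named by gene identifier through the platform annotation of 2016 and a RefSeq gene table (TAIR10.1), which lacked 2 of the 692 single-gene identifiers. A feature can also bind relatives of its gene. Genes named beside the members were all measured genes of the listed pathways and markers, and the 3 single-gene features most like each member by Pearson correlation, in levels and in deviations from group means. The members and lists were chosen with earlier results of these data known. The number of arrays limits the precision.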

Additional observations from a re-analysis of the deposited data

How the results depend on the processing

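The directions of AT3G58610, AT3G23940 and their ratio were kept under each alternative run (22, 22 and 18 of them). This count is no support, since all runs reuse the contrast that chose the members. Runs such as the replicate block and the averaged neighbours left the differences as they were and could not turn a direction. On the deposited scale the difference of AT3G58610 was smaller in size than its SE of 0.0896. AT3G58610 lost its call on the deposited scale (-0.056), with neighbouring replicates averaged (-0.33) and with them as a random block (-0.33). AT3G23940 lost its call with median scaling (0.11) and with neighbours averaged (0.32). The log2 ratio difference was -0.44 both on the deposited scale and with median scaling. The averaged setting has 3 values per group, and the causes of the other losses were not tested. Leaving out each array gave -0.36 to -0.29 for AT3G58610, 0.28 to 0.35 for AT3G23940 and -0.68 to -0.59 for the ratio, and both genes were called in all 12 such fits. Against 284 called features, the deposited scale gave 909, the replicate block 517, the random block 99 and the averaged neighbours 4, and leaving out each array 222 to 277. The replicate block changed the call of neither gene, at -0.33 (SE 0.0672) for AT3G58610 and 0.32 (SE 0.0597) for AT3G23940. Each gene rests on 1 feature, so no second feature checks it. In none of the 6 sets of 6 values examined did 1 array lie far from the rest by Dixon's test. That test looks for 1 value, so neighbours that deviate together can hide each other from it. For AT3G23940, ppi1 replicates 3 and 4 were both high, at 1.93 and 1.995.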
